A study of Drosophila melanogaster with 2 samples.

Results

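Summits of GFP-tagged CG8281 were described at 7 genes of Drosophila tracheal development, which were taken by symbol from 13968 protein-coding genes. They are trachealess (trh), breathless (btl), branchless (bnl), ventral veins lacking (vvl), ribbon (rib), grainy head (grh) and similar (sima). A locus was the body of the gene plus 5 kb on each side, and a summit is the single base at which a deposited peak is highest. Chromatin immunoprecipitation and sequencing (ChIP-seq) was done with an antibody against GFP on whole embryos aged 0 to 20 h from a transgenic line that stably carries CG8281 with GFP at its C terminus. The antibody is given as one against GFP in the sample descriptions, although the antibody label itself reads CG8281. There was 1 group with 2 biological replicates, so there was no second condition or genotype to compare, and expression of the tracheal genes was not measured. The replicate 1, replicate 2 and pooled lists held 30000 peaks each, and the optimal list held 3921. All 3921 optimal peaks had the same position and signal in the pooled list and were its strongest, so an optimal peak has the same rank in both. Whole embryos hold all tissues, and fewer bound cells and weaker binding per cell cannot be told apart in these lists.

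The trachea is the air-carrying tube system of insects. It forms from patches of ectoderm that Trachealess, a bHLH-PAS transcription factor acting with the partner protein Tango, sets apart as tracheal cells, with the POU-domain factor Ventral veins lacking acting beside it. Branchless, a fibroblast growth factor made by surrounding tissue, draws the branches out through Breathless, its receptor on tracheal cells. Ribbon, a BTB-domain nuclear protein, is needed for branches to extend, Grainy head is an epithelial transcription factor that limits tube growth, and Similar is the fly counterpart of the hypoxia-inducible factor alpha subunit.

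Sequence under the optimal summits is shown for 5 loci, as the reference genome gives it for dm6 along the strand of the gene, with the strongest optimal summit of each. They show how much of the sequence is A and T at these 5 summits only. Summits of rib and grh are not shown, and the strongest grh summit had the highest GC content of the tracheal optimal summits, 52.2% within 100 bp. The btl summit held overlapping copies of TGAATGA, which matches TCANTCA (N is any base) on the other strand. The share of TGAATGA by itself among the other optimal summits is not given. Each run holds 151 bp with the summit at its centre. Capitals mark overlapping copies of TGAATGA in btl and the longest run of A and T in the other 4. In sima another run of the same length, 10 bp, is left in small letters.
trh, chr3L:377624-377774, minus strand: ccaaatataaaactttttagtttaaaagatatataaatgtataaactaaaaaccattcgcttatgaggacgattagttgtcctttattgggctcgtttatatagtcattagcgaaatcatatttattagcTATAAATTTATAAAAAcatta
btl, chr3L:14077909-14078059, plus strand: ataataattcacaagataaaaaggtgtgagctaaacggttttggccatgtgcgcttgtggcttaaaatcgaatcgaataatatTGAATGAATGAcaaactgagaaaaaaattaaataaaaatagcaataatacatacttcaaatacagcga
bnl, chr3R:19831109-19831259, minus strand: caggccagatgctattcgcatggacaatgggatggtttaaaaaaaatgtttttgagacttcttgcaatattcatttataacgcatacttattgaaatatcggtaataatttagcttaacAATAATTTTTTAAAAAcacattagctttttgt
vvl, chr3L:6797621-6797771, plus strand: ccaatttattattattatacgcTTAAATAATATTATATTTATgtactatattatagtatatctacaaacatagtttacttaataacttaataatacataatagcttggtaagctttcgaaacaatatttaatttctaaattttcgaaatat
sima, chr3R:30061236-30061386, plus strand: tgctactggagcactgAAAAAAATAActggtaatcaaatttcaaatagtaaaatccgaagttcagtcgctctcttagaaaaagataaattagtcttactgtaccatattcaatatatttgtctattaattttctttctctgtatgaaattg

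Each of the 7 loci held at least 1 optimal summit, beside 38.3% of all protein-coding genes. Tracheal loci are long, and that share grew with the length of the locus. It was 38.6% for loci of 12 to 15 kb, the class of vvl, 45.1% for 15 to 20 kb, the class of btl, and 55.1% for 20 to 30 kb, the class of rib. For loci of 30 to 50 kb, the class of trh, it was 60.0%, and for loci of 50 kb or more, which took in bnl, grh and sima, it was 69.2%. The 7 loci held 12 optimal summits in all, of which 9 lay in introns, 1 at a promoter, 1 in an upstream flank and 1 in a downstream flank, and none lay in coding sequence. Summits within 500 bp of any annotated transcription start site (TSS) of the gene itself were classed as promoter before any other class was considered. In the longer pooled list the same loci held 106 summits, 72 of them in introns, 10 at promoters, 3 in coding sequence, 13 upstream and 8 downstream. A summit in the locus was found for 7 of the 7 tracheal genes in the pooled list beside 77.4% of all genes, 7 in replicate 1 beside 90.7%, and 7 in replicate 2 beside 70.4%.

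**Figure D1:**
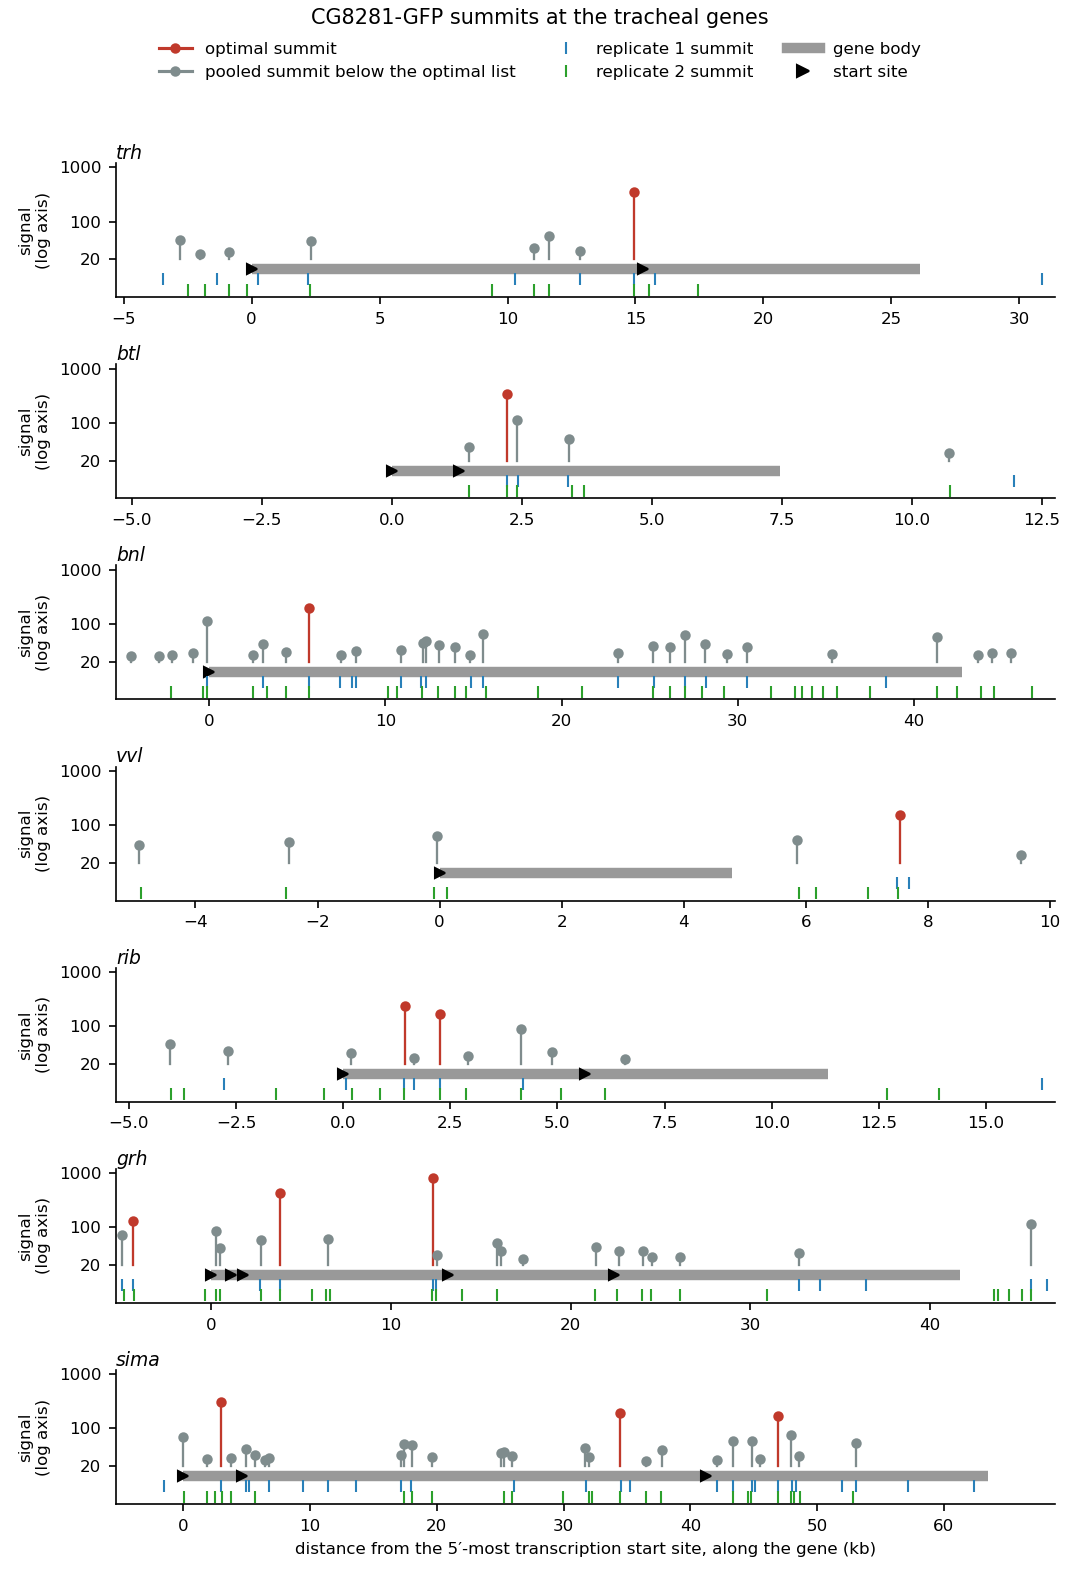
Summits at the 7 tracheal loci, with distance from the 5′-most start site along the gene in kb and the deposited signal on a log axis. Red stems are the 12 optimal summits, grey stems are pooled summits below the optimal list, and ticks under each gene body are the summits of replicate 1 (blue) and replicate 2 (green). Most red stems stand inside gene bodies, away from the start sites marked by arrowheads.

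Among the specification genes, trh (FBgn0262139, chr3L:366524-392633, minus strand) held 1 optimal summit, 8 pooled summits, 9 in replicate 1 and 11 in replicate 2. Its optimal summit, at position 377699, had a signal of 358 and rank 1046, and was the single optimal summit of the 7 loci at a promoter. It lay 383 bp upstream of an internal TSS used by 5 of the 7 annotated transcripts, and 14934 bp downstream of the 5′-most TSS used by the other 2. The peak over it had a signal of 160.4 and rank 1166 in replicate 1, and 205 and rank 926 in replicate 2, so the replicates placed it close together in their lists. At the 5′-most TSS itself, the nearest summits were weak, with a signal of 14.8 and rank 29794 in replicate 1, 249 bp downstream, and 20.1 and rank 23714 in replicate 2, 168 bp upstream.

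The compact gene vvl (FBgn0086680, chr3L:6790158-6794941, plus strand, 1 annotated TSS) had its 1 optimal summit outside the gene, in the downstream flank. That summit, at position 6797696 and 7538 bp from the TSS, was the farthest of the 12 from any TSS, with a signal of 155 and rank 2974. In replicate 1 the peak there had a signal of 86.7 and rank 2487, and in replicate 2 it had 65.0 and rank 4562. It was the strongest of only 2 replicate 1 summits in the locus, whereas replicate 2 had 8 and the pooled list 6. Of those 6 pooled summits 3 lay downstream, 2 upstream and 1 at the promoter, 38 bp upstream of the TSS with a signal of 62.2 and rank 9045. Without replicate 1, that is among the 3921 strongest peaks of replicate 2, vvl had no summit in its locus and 6 of the 7 genes did, beside 34.9% of all protein-coding genes, while without replicate 2 all 7 did, beside 40.7%.

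At rib (FBgn0003254, chr2R:19270078-19281396, plus strand) both optimal summits lay in an intron downstream of the 5′-most TSS. The nearer, 1437 bp from it, had a signal of 232 and rank 1795, with 83.6 and rank 2602 in replicate 1 and 152 and rank 1400 in replicate 2. The farther, 2253 bp from it, had a signal of 167 and rank 2696, with 46.6 and rank 5009 in replicate 1 and 117 and rank 1986 in replicate 2. Both stood higher in the replicate 2 list. Pooled summits numbered 10, with 7 in replicate 1 and 14 in replicate 2.

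For the ligand and receptor of the branching signal, btl (FBgn0285896, chr3L:14075772-14083229, plus strand) had the stronger peak. Its optimal summit, at position 14077984 in an intron, lay 919 bp downstream of the second of its TSSs and had a signal of 335 and rank 1144. Its replicate ranks were the farthest apart of the 12 in ratio, with a signal of 85.8 and rank 2522 in replicate 1 and 246 and rank 716 in replicate 2. A further pooled summit stood 201 bp downstream with a signal of 113.3 and rank 4315, just outside the optimal list. In all, btl held 5 pooled summits, 4 in replicate 1 and 6 in replicate 2.

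The ligand gene bnl (FBgn0014135, chr3R:19794073-19836817, minus strand) held 30 pooled summits in a locus of 52.7 kb, the most of the 7 genes, but only 1 of them was in the optimal list. That summit, at position 19831184 in an intron 5633 bp from the single annotated TSS, had a signal of 194 and rank 2249, with 73.3 and rank 2996 in replicate 1 and 113 and rank 2082 in replicate 2. The others were weaker, and 20 of the 30 lay in introns. The next strongest, 129 bp upstream of the TSS, had a pooled signal of 113.9 and rank 4283, so the bnl promoter fell just short of the optimal list. It was at rank 7839 in replicate 1, with a signal of 32.1, and at rank 3688 in replicate 2, with 75.8.

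The strongest tracheal peak was at grh (FBgn0259211, chr2R:17801132-17842820, plus strand, 5 annotated TSSs). Its summit, at position 17813459 in an intron and 885 bp upstream of an internal TSS, had a signal of 798 and rank 351, which is 3.68 times the median signal of the optimal list. The peak had a signal of 260 and rank 601 in replicate 1, and 542 and rank 243 in replicate 2. A second intronic summit, 2070 bp downstream of another TSS of the gene, had a signal of 432 and rank 804, with 143 and rank 1352 in replicate 1 and 285 and rank 597 in replicate 2. The first of these ranked highest of the 12 in both replicates, and the second came next in replicate 2 and, behind trh, in replicate 1. The third lay in the upstream flank, 4334 bp from grh, within the gene Dhit and the antisense RNA gene asRNA:CR45270, and the nearest TSS, 3928 bp away, was that of Dhit. With a signal of 129 and rank 3690 it was the weakest of the 12, at rank 4117 in replicate 1 and 4553 in replicate 2. Counts at grh were 19 pooled summits, 11 in replicate 1 and 25 in replicate 2.

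The longest locus, that of the hypoxia factor gene sima (FBgn0266411, chr3R:30058311-30121798, plus strand, 73.5 kb), held 3 optimal summits, all in introns, and the same number as grh. Among all protein-coding genes, most of which have shorter loci, 5.09% had 3 or more. That share was not taken among loci of 50 kb or more, the class of both sima and grh. The strongest, at position 30061311 and 1611 bp upstream of an internal TSS, had a signal of 303 and rank 1305, with 140.2 and rank 1393 in replicate 1 and 169.6 and rank 1183 in replicate 2. The others, at 30092786 and 30105229, had signals of 191 and 167 and ranks 2293 and 2714. In replicate 1 they were at ranks 4467 and 4148, and in replicate 2 at ranks 1612 and 2074, so these weaker summits were lower in the replicate 1 list while the strongest was about level. sima was also the 1 locus with equal counts in the replicates, 25 each, beside 28 pooled summits.

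Over the 12 optimal summits, both replicate lists held an overlapping peak for every one, beside 94.9% of the other 3909 optimal peaks. The optimal list was drawn by the irreproducible discovery rate between replicates, so this outcome was largely set by how the list was made. The summits of the overlapping replicate peaks lay a median of 19 bp apart, against 26 bp for the other peaks. Their ranks were uneven. In 10 of 12, 83.3%, the peak stood higher in replicate 2, against 52.8% of the 3709 other optimal peaks that had a peak in both replicates, and the exceptions were vvl and the upstream summit of grh. The rank in replicate 1 was a median of 1.93 times that in replicate 2, against 1.05 times for the others. In 7 of 12, 58.3%, the peak was among the 3921 strongest of both replicates, against 68.2% of the others.

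**Figure D2:**
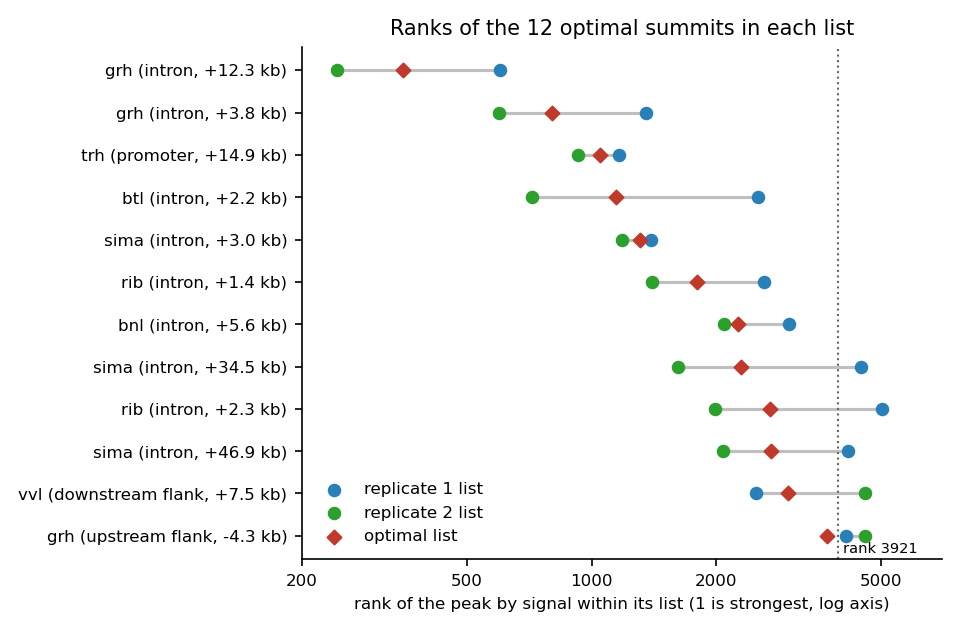
Rank by signal of each of the 12 optimal tracheal summits (rows, with class and distance from the 5′-most start site), on a log axis on which rank 1 is the strongest peak. Red diamonds are the optimal list, green circles replicate 2 and blue circles replicate 1, and the dotted line is rank 3921, the length of the optimal list. Green stands left of blue in 10 of the 12 rows.

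Over the whole replicate lists, peaks at the optimal summits included, the 7 loci also held more summits in replicate 2. There were 122 in replicate 2 and 75 in replicate 1, although both lists have 30000 peaks. Per 100 kb this was 45.6 summits in the tracheal loci against 23.6 in all protein-coding loci in replicate 2, and 28.0 against 24.0 in replicate 1. Of the 75 replicate 1 summits, 44 lay in a peak that overlapped a replicate 2 peak, 58.7%, against 49.5% elsewhere. Of the 122 in replicate 2 the same number did, 36.1%, against 50.3% elsewhere. The replicates also differed over all protein-coding genes, with a summit in the locus of 90.7% in replicate 1 and 70.4% in replicate 2. Other long loci were not compared, and the source of this difference between the replicates was not tested.

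In the optimal list the 7 loci, 267.6 kb in all, held 4.48 summits per 100 kb, against 3.25 in all protein-coding loci and 2.85 over the chromosome arms. Among the 7 the density was 9.38 at rib, 6.76 at vvl, 5.8 at grh, 5.73 at btl, 4.08 at sima, 2.77 at trh and 1.9 at bnl. The last 2 were thus below the figure for all loci, and each rested on 1 summit. Between 62.4% (bnl) and 87.9% (rib) of protein-coding genes had a lower density, counting those with no optimal summit. Only 38.3% of all genes had an optimal summit in the locus. Nearly all genes counted as lower than bnl or trh (63.2%) therefore had none. Replicate 2 alone gave 4.48 and replicate 1 alone 3.36, with as many peaks as the optimal list, so the figure was lower without replicate 2. The density of all loci is not given for these shortened lists, and 3.36 is near the 3.25 of all loci in the optimal list. In the pooled list the density was 39.6 against 23.6, and bnl, lowest in the optimal list, was highest at 56.9.

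**Figure D3:**
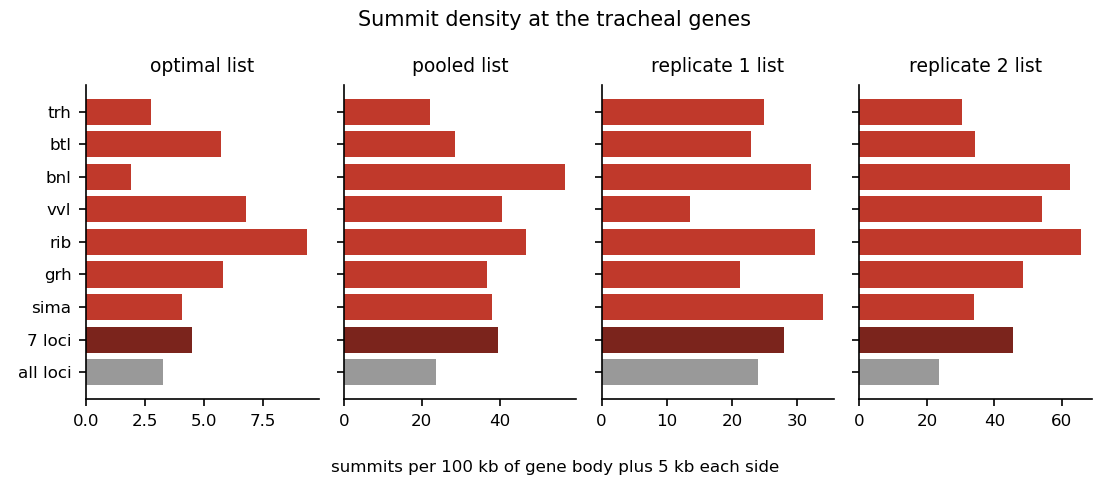
Summits per 100 kb of gene body plus 5 kb on each side in the 4 lists, for each tracheal gene (red), the 7 loci together (dark red) and all protein-coding loci (grey). The 7 loci together lie above all loci in each list, at 4.48 against 3.25 in the optimal list and 39.6 against 23.6 in the pooled list. The gap was 45.6 against 23.6 in replicate 2 and smaller in replicate 1, at 28.0 against 24.0.

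Most of the 12 optimal summits lay away from promoters, but the count of genes with a promoter summit was near the share of all genes. In the optimal list 1 of the 7 genes, trh, had a promoter summit, beside 12.2% of all protein-coding genes. Of the 12 summits 1, 8.33%, was within 500 bp of the TSS of any protein-coding gene, against 35.4% of the other optimal summits. The median distance was 2161 bp, against 1384 bp, and summits in loci of like length were not compared. The count moved with the definition. It was 0 of the 7 genes at 250 bp, beside 9.13% of all protein-coding genes, 0 with the 5′-most TSS alone, beside 10.3%, and 3 (trh, btl and grh) at 1000 bp, beside 14.8%. Without replicate 1 it was 2 (trh and bnl), beside 10.2%. Further pooled summits within 250 bp were about as common, at 3 of 12 (btl, rib and grh, 201 to 214 bp away), 25.0%, against 23.0%.

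Weaker peaks did lie at the promoters. A gene counted if any of its annotated TSSs had a summit within 500 bp, and grh has 5 TSSs and sima 3. Genes with like numbers of TSSs were not compared. All 7 genes had a promoter summit in the pooled list, beside 36.3% of protein-coding genes, all 7 in replicate 2, beside 33.8%, and 4 in replicate 1 (trh, bnl, rib and sima), beside 41.2%. After trh, the pooled order was bnl, with a signal of 113.9 and rank 4283, grh with 84.1 and rank 6158, sima with 70.2 and rank 7768, vvl with 62.2 and rank 9045, btl with 35.4 and rank 19043 and rib with 31.5 and rank 22437. The last 2 were in the weak part of the list. At vvl the replicate 2 promoter summit had a signal of 48.4 and rank 7028, at grh 71.1 and rank 4033, and at btl 34.4 and rank 11672, and none of these 3 had a replicate 1 summit at the promoter. At sima the replicates marked different start sites, with a signal of 37.1 and rank 6541 in replicate 1, 329 bp from an internal TSS, and 60.5 and rank 5075 in replicate 2, 28 bp from the 5′-most TSS.

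The edge of the optimal list ran between a signal of 129 at the upstream summit of grh, the weakest inside, and 117 at the strongest pooled summit outside. This last summit was in the downstream flank of grh but 78 bp from the TSS of olf186-M and within Orai, and it was at rank 4192. The promoter of bnl at 113.9 and the btl summit at 113.3 came next. Intronic summits of rib, with a signal of 89.2 and rank 5742, and of sima, with 75.4 and rank 7101, were the next in line at those genes.

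The DNA under most of the tracheal summits was rich in A and T. Other optimal summits at like distances from a TSS were not compared. Within 100 bp of the summit, GC content had a median of 32.1% and ran from 20.9 to 52.2%, against a median of 36.8% and a range of 13.9 to 64.2% for the other 3909. Sequence centred 500 bp to either side had a median of 39.6%, against 42.1% for the others. vvl was lowest, and the strongest grh summit, at 52.2%, was highest. The longest run of A and T had a median of 13.5 bp, from 8 bp at a sima summit to 23 bp at a rib summit, against a median of 10 bp for the other optimal summits.

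**Figure D4:**
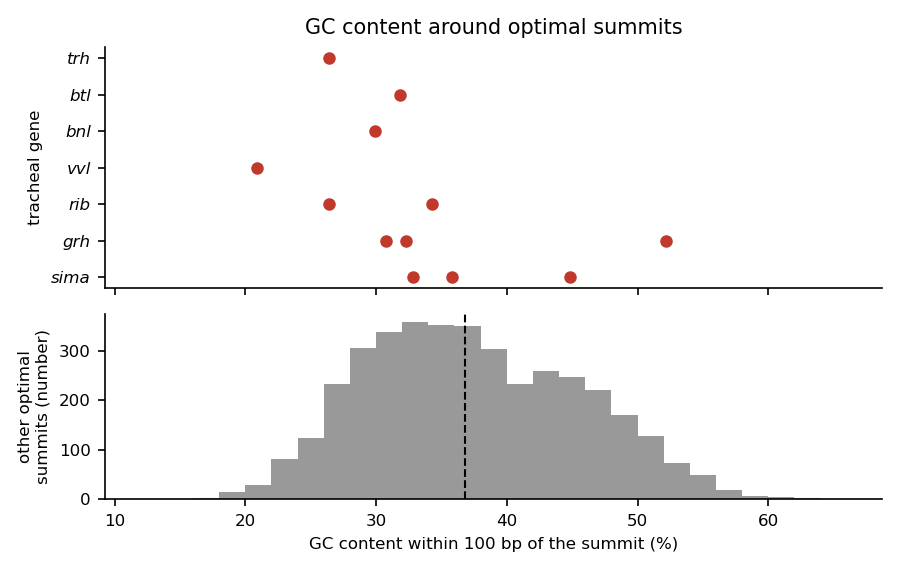
GC content in percent within 100 bp of each optimal summit, as 1 red point per tracheal summit by gene (top) and as a histogram of the other 3909 optimal summits (bottom, number of summits, dashed line at their median of 36.8%). Of the red points 10 lie left of the dashed line, with the strongest grh summit and 1 of sima to its right.

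In these windows 8 motifs were searched on both strands. TCANTCA, where N is any base, was chosen after the other optimal windows had been seen, and it takes in TCAGTCA, the word of 7 bases with the highest ratio of those windows to the sequence beside them, among words in 100 windows or more. TCANTCA was in 2 of 12 tracheal windows, 16.7%, against 20.2% of the other optimal windows and 11.0% of the sequence beside those. The matches were the btl summit, with overlapping copies of TGAATGA 11 and 15 bp from the summit, as printed above, and the strongest grh summit, with TGATTGA 28 bp away. TCAGTCA itself was in none of the 12, against 8.54% of the others, and a pair or more of TCANTCA words was in 1, that of btl, 8.33%, against 10.2%. Among the 1000 strongest optimal summits, with those of the 7 loci left out (998 remained), that share was 21.9%. Among the 1000 weakest, also 998 without the loci, it was 4.41%.

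Motifs known for tracheal and other embryonic factors were found in 1 of the 12 windows. ACGTG, the core bound by Trachealess or Similar with Tango, was in none of the 12 windows, against 14.1% of the others. The Grainy head word ACCGGTT was in none, against 0.716%, the POU-factor word ATGCAAA in none, against 7.85%, the Zelda word CAGGTAG in none, against 1.05%, and TATCGAT, the core of the DNA replication-related element, in none, against 3.61%. GAGAGAG, bound by GAGA factor, was in 1, the strongest sima summit, 8.33%, against 4.27%. An absent word says only that these letters are not in this window.

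The other genes of tracheal development were grouped in 6 lists by role, and 41 of their 75 genes, 54.7%, had an optimal summit in the locus, beside 38.3% of all protein-coding genes. At a promoter 14 did, 18.7%, beside 12.2%. These lists too hold many long genes, and they were not set against genes of like length. Of the 7 further specification genes 3, 42.9%, had a summit in the locus and 1, 14.3%, at a promoter. They were the homeobox gene hth, with a strongest signal of 799 and rank 350 in an intron, Stat92E, the transcription factor of the JAK/STAT pathway, with 294, and the Hox gene Ubx, with 136 at a summit nearest to modSP. tgo, which encodes the partner of Trachealess and Similar, had none.

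The list of fibroblast growth factor (FGF) relay and effector genes also took in other fly FGFs and their receptor, beside the relay of the branching signal. Of its 15 genes 12, 80.0%, had a summit in the locus, the highest share of the 6 lists, and 5, 33.3%, had a promoter summit. pnt, which encodes an ETS transcription factor at the end of the pathway, held the second strongest summit of any listed gene, with a signal of 3957 and rank 49 in an intron 9454 bp from its TSS. Raf, a kinase of the pathway, had 9 optimal summits and a strongest signal of 700 (rank 429), and the adaptor gene drk had 389, at a summit nearest to mars. stumps, which encodes the adaptor protein of fly FGF receptors, had 3 optimal summits, with 199 at a promoter as the strongest. Of the genes for other fly FGFs and their receptor, ths had 5, htl 2 and pyr none.

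Of 16 genes of branch identity 8, 50%, had a summit in the locus and 2, 12.5%, at a promoter. The strongest was at the promoter of Mad, the transcription factor of Dpp signalling, with a signal of 12189 and rank 6. Introns of N, the Notch receptor gene, and of Delta, its ligand gene, came next with 1568 and 723. Among 8 genes of terminal branching and hypoxia 6, 75%, had a summit in the locus and 3, 37.5%, at a promoter. The strongest were Ldh, lactate dehydrogenase, with 686 at a promoter, the kinase gene Btk with 620 at a promoter, and the Wnt receptor gene fz2 with 467 in an intron. Hph, the prolyl hydroxylase that acts on Similar, had 357 at a summit nearest to Tim17a2, and Vhl had no optimal summit.

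Genes of the finished tube had shares near those of all protein-coding genes. An optimal summit lay in the locus of 7 of 17 genes of tube size and matrix, 41.2%, and of 5 of 12 of the septate junction, 41.7%, beside 38.3% of all. At a promoter there were 2, 11.8%, and 1, 8.33%, beside 12.2%. For tube and matrix the strongest were the transcription factor gene Blimp-1 with 2306 at a summit nearest to lin-28, cv-c with 851 in an intron, and the matrix protein gene pio with 764 at a promoter. kkv, which encodes chitin synthase, and the chitin deacetylase genes serp and verm had none. For the septate junction they were the sodium pump beta subunit gene nrv2 with 611 at a summit nearest to nrv1, the adhesion protein gene Fas3 with 435, and Atpalpha, the alpha subunit gene of the pump, with 387 at a promoter.

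By rank alone, each tracheal peak stood among genes of mixed kinds. The nearest TSSs of the 2 optimal peaks next above and the 2 next below the strongest summit were those of CG9328, hth, osa and CG8360 for grh (signals 795 to 801), and of lili, rhea, sdk and Gbs-76A for trh (357 to 358). They were CG34234, CG9837, CG6168 and RpL13A for btl, and melt, chas, CHES-1-like and gb for sima. For rib they were Svil, CG43248, Nt5b and CG33199, for bnl ush, CG10383, Ten-a and CG12362, and for vvl X11L, E2f1, PGAP3 and Ptpmeg2. This likeness is of 1 signal value in 1 list and of nothing else.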

How the data were processed

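ChIP-seq peaks came from whole embryos of the CG8281-GFP line, as 1 group of 2 biological replicates per the labels. Sonicated fragments spanned 200 to 800 bp. Per the deposited descriptions, each replicate's peaks were called against a control, those of the pooled list from both libraries joined, and the optimal list was then drawn from these lists by the irreproducible discovery rate. How reads were aligned, and which caller and thresholds were used, is not given in the sources used. The deposited values used were the authors' signal per peak and the summit position. The scaling of this signal is not stated and read alignments were not used, so depth is unknown and signals are compared within a list only.

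Genes and TSSs were from Ensembl release 115, and sequence from the RefSeq genome of the same assembly. Counts, ranks and motifs were computed with Python 3.11.15, NumPy 2.4.6, pandas 2.3.3 and SciPy 1.17.1, figures with Matplotlib 3.10.9, and the scripts were tested on simulated data. Replicate peaks matched when they overlapped by 1 bp or more. With 1 group no test between samples exists, and no p-value is given. Genes named outside the 7 were the 3 with the strongest optimal summit in each list, those next in rank, and those lying inside a tracheal locus. A few more listed genes (stumps, ths, htl, pyr, tgo, Hph, Vhl, kkv, serp, verm) were named for their roles after their values were seen.

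Members and lists were chosen with earlier results of these data known. Length classes of loci, the marking of A and T runs, and TCANTCA with TCAGTCA were chosen after seeing the data. For these 2 words, words of 6, 7 and 8 bases in all optimal windows were looked through, the tracheal ones included, and the shares given leave the tracheal windows out. After a first count, 4 genes of the lists (Raf, dysf, Btk and dpy) were matched through other symbols.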

Additional observations from a re-analysis of the deposited data

How the results depend on the processing

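Alternatives were run for the counts of genes and summits, the density, the replicate matches and the motif windows, each under the settings that bear on it. GC content, A and T runs, TSS distances, replicate ranks and overlaps and the 6 gene lists had none. The 7 genes with an optimal summit in the locus became 6 with no flank, beside 10.7% of all protein-coding genes, 6 at 2 kb, beside 26.2%, and 6 without replicate 1, beside 34.9% (vvl lost in each). They became 5 in the stronger part of the optimal list, 1960 peaks, beside 24.4% (bnl and vvl lost). They were 7 at 10 kb, beside 53.1%, at 20 kb, beside 70.8%, without replicate 2, beside 40.7%, and among the 7842 strongest pooled peaks, beside 52.6%. The 12 summits became 25 with a flank of 20 kb, 6 in the stronger part and 20 among the 7842 pooled peaks, and were 9 to 12 with either replicate left out. Density ran from 3.36 to 4.48 per 100 kb with either replicate left out, and was 2.24 in the stronger part and 7.47 among 7842 pooled peaks. The density of all loci is not given for these settings. The 1 gene with a promoter summit became 0 at 250 bp, 3 at 1000 bp, 0 with the 5′-most TSS alone and 4 (trh, bnl, grh and sima) among 7842 pooled peaks, beside 19.4% of all genes, and was 1 to 2 with either replicate left out. Within 150 bp of the summit TCAGTCA and ATGCAAA were in 1 tracheal window each, and within 50 bp GAGAGAG was in 0. The cause was not tested. All 12 optimal summits had a peak in both replicates also when summits had to lie within 100 or 250 bp, which the way the optimal list was drawn favours. Before the 4 late symbol matches, 37 of 71 listed genes had a summit in the locus and 11 at a promoter. No paired analysis was possible because there is 1 group. With 2 replicates and unknown depth, a summit missing from a list may lie below its length limit of 30000 peaks.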
